A study of Mus musculus with 16 samples.

Results

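The cells described here are the endothelial cells of the mouse spinal cord that stood in the authors' endothelial class from their first clustering, 3046 of the 18203 deposited cells. They were chosen by cluster labels alone. The deposited endothelial class held 4201 cells, and the 1155 cells that the authors had moved into it from Cluster 2 were left out. Cord around a cervical dorsal column lesion had been dissociated, and a 10x Genomics Chromium 3′ library was made from each of 16 mice, which counts unique molecular identifiers (UMIs), 1 for each captured RNA molecule. Control mice (WT) were Ryk+/+ and knockout mice (cKO) were Rykfl/fl, and both genotypes carried GFAPcreERT2 and were 8 to 10 weeks old. Both received tamoxifen every day for 7 days, starting 5 days before the operation, and 2 mice of each genotype were taken uninjured (labelled sham), at 1 d, at 7 d and at 14 d. The Cre is driven by the GFAP promoter and acts in astrocytes, so endothelial cells were not its target, and a difference between genotypes in them would be one measured in cells that by design keep Ryk.

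Endothelial cells line the vessels of the cord and form the blood-brain barrier there, with tight junctions, few vesicles and a set of transporters that carry nutrients in and drugs out. Arteries, capillaries and veins differ in the genes they express, and it is mainly the small veins that bind leukocytes after injury, through selectins, adhesion molecules and presented chemokines. Vegf and Wnt signals from neighbouring cells, astrocytes among them, maintain the vessels and the barrier.

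Of the mice, 15 had endothelial cells to compare, between 42 and 283 each with a median of 210. The library of WT 1 d replicate 2 held 1 cell and 0 endothelial cells, so WT at 1 d is a single mouse. Endothelial UMIs per mouse ran from 128007 to 1588131, and the median UMIs per endothelial cell from 423 to 8269. In 4 libraries, the first replicates of both genotypes at 1 d and 7 d, that median was 423 to 467, and it was 1510 or more in the other 11. These 4 shallow libraries also share cell barcodes. Across all classes 395 pairs of cells had 1 barcode in 2 libraries, and in 341 of these both libraries were shallow. Both cells of the pair had the same class in 92.4% of those 341 pairs and in 18.5% of the other 54. Among endothelial cells, 150 had a barcode that occurs in another library, 137 of them among the 1059 endothelial cells of the shallow libraries.

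Other measures set libraries apart in ways that the groups do not explain. The names of the cells give another condition than the sample title for 6 mice, all of them replicate 2. By the names, WT uninjured would be cKO uninjured, cKO uninjured would be WT 7 d, WT 1 d would be WT 14 d, WT 7 d would be WT 1 d, WT 14 d would be cKO 14 d and cKO 14 d would be cKO 7 d. Conditions here follow the titles. Gm42418, which overlaps ribosomal RNA, reached 116784, 119683 and 79354 counts per 1000000 UMIs (CPM) in WT uninjured replicate 2, cKO uninjured replicate 2 and cKO 1 d replicate 2, and lay at 3210 to 36572 in the other 12 mice. Xist, the RNA of the inactive X chromosome, lay at 560 to 794 CPM in 5 mice, namely replicate 2 of WT uninjured, cKO uninjured, WT 7 d and WT 14 d and replicate 1 of cKO 1 d, and at 0 to 19.7 CPM in the others. The Y-linked gene Ddx3y ran the other way, at 0 to 12.4 CPM in those 5 and at 61.5 to 117 CPM in the others, and the labels do not give the sex. Fos, an immediate early gene that can respond to dissociation, lay at 958 to 1182 CPM in the shallow libraries. It lay at 700 CPM in WT uninjured replicate 1, against 41.9 to 392 CPM in the remaining 10. The study's methods list actinomycin D (ActD) in the digestion solution and the later buffers, and the source of the Fos level was not tested.

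The markers of the class fit its name in every mouse. Flt1, a receptor for Vegf, had a level of 6594 CPM summed over these cells against 306 CPM in all other cells, and a UMI in 95.4% of them against 13.3%. Cldn5, the main claudin of the barrier's tight junctions, stood at 2711 CPM against 88.7 CPM. Cxcl12, a chemokine, stood at 2462 against 86.0 CPM, and Ly6c1, a surface protein of endothelium, at 2333 against 90.4 CPM. Pecam1, an adhesion protein of endothelial contacts, stood at 827 against 41.0 CPM. In neurons, which should lack them, a UMI of Cldn5 was found in 10.7% of cells and of Flt1 in 26.1%, at a median of 1848 UMIs per cell against 1729.5 in the endothelial cells. These levels describe the clustering, which used the same genes, and no test belongs to them. Of 5 lymphatic markers, Prox1 had 24 UMIs and Lyve1 had 5 in all 3046 cells, and Ccl21a had none. Flt4, the most abundant of the 5 and also a Vegf receptor, had 1008 UMIs. The 5 summed to 80.5 to 148 CPM per mouse. Ptprc, which marks leukocytes, had 10 UMIs, and Pdgfrb, which marks pericytes, had 15.3 CPM against 1121 CPM in the pericytes of Cluster 9. Other markers of these cell types were higher. The 10 pericyte and smooth muscle markers, led by Rgs5, summed to 386 to 2070 CPM per mouse. The 8 immune and myeloid markers, led by S100a9, summed to 2.07 to 100 CPM. The cells moved in from Cluster 2 had less of the markers, with Cldn5 at 862 CPM and Flt1 at 2081 CPM, at a median of 577 UMIs.

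Endothelial cells made up 17.0% ± 4.78 (SD, n = 11) of the cells of injured mice and 19.1% ± 4.33 (SD, n = 4) of uninjured mice, a difference of −2.10 points (exact two-sided permutation test within genotype, p = 0.423). Without WT uninjured replicate 1 the difference was −0.26 points (exact permutation p = 0.929), and without the shallow libraries it was −4.43 points (exact permutation p = 0.0733). After injury they made up 14.9% ± 4.29 (SD, n = 6) of cells in cKO and 19.5% ± 4.42 (SD, n = 5) in WT. The difference, averaged over the 3 time points, was −5.59 points (exact two-sided permutation test within time, p = 0.0833, where the smallest p the design allows is 0.00926). With the conditions of the cell names it was −5.34 points (exact p = 0.0389), so the call rests on which labels hold. Without cKO 1 d replicate 2 it was −3.59 points (exact permutation p = 0.0556). Without the shallow libraries it was −3.99 points (n = 4 cKO and n = 3 WT), with no WT mouse left at 1 d. The smallest p that this reduced design allows is 0.0833, so a test there cannot fall under 0.05. The part of depth in the genotype difference was not tested.

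Ryk, the Wnt receptor that the knockout targets, was expressed in these cells at a low level. In CPM it was 59.0 and 70.8 in the uninjured WT mice, 60.1 and 90.0 in the uninjured cKO mice, 72.0 in the WT mouse at 1 d, and 37.1 and 67.7 in the cKO mice at 1 d. At 7 d it was 56.0 and 70.6 in WT and 41.2 and 70.1 in cKO, and at 14 d it was 41.0 and 72.0 in WT and 71.2 and 64.7 in cKO. At 1 d both cKO mice lay below the single WT mouse. The genotypes overlapped at 7 d, at 14 d and among all injured mice pooled, and both uninjured cKO mice lay within or above the range of the uninjured WT mice. After injury the log2 fold change of Ryk in cKO against WT was −0.08 (adjusted p = 1.00). Reads of a 3′ library may lie outside the deleted part of the gene, so the level does not measure the deletion.

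Counts were summed per mouse and 10458 genes were tested with edgeR, with p adjusted over all of them and a threshold of 0.05. Each time point was compared with the 4 uninjured mice with both genotypes averaged, to ask what the lesion changed in these cells, and the 3 comparisons share those uninjured mice. At 1 d, 2 genes (0.0191% of those tested) passed, both higher after injury, Lcn2 and Adamts9. At an unadjusted p under 0.05 there were 600 genes, 260 higher and 340 lower, and DESeq2 called 4, the same 2 with Scgb3a1 and Igfbp4. With the replicate number as a block, which pairs mice by the authors' batch, 5 genes passed at 1 d, and these were Lcn2, Adamts9, Ackr1, Scgb3a1 and Igfbp4. At 7 d edgeR called 0 genes (0%), 963 had an unadjusted p under 0.05, and by DESeq2 0 passed. At 14 d edgeR called 0 genes (0%), 780 had an unadjusted p under 0.05, and by DESeq2 1 passed, Igfbp3, lower.

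Lcn2 encodes lipocalin 2, a secreted protein that binds bacterial siderophores and is made by many cells in inflammation. Its level was 11.4 and 6.44 CPM in the uninjured WT mice and 7.51 and 12.5 CPM in the uninjured cKO mice. At 1 d it was 1107 CPM in the WT mouse and 427 and 642 CPM in the cKO mice. All 3 mice at 1 d lay above all uninjured mice. At 7 d it was 133 and 8.97 CPM in WT and 76.4 and 8.69 CPM in cKO, so the shallow library was the higher of each pair. At 14 d it was 31.7 and 26.7 CPM in WT and 73.2 and 19.1 CPM in cKO, all above the uninjured mice. The log2 fold change was 6.18 at 1 d (adjusted p = 0.00263), 1.65 at 7 d (adjusted p = 0.560) and 1.76 at 14 d (adjusted p = 0.665). The response at 1 d was not tested for a difference between genotypes, since WT has 1 mouse there.

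The call for Lcn2 depends on single libraries, and its direction does not. Over 28 alternatives the log2 fold change at 1 d lay between 5.56 and 6.47, and the adjusted p passed in 24. It did not pass without cKO uninjured replicate 1 (log2 fold change 6.09, adjusted p = 0.102), without cKO uninjured replicate 2 (6.46, adjusted p = 0.199) or without WT 1 d replicate 1 (5.56, adjusted p = 0.325), a fit that has only cKO mice at 1 d. It also did not pass with the conditions of the cell names (5.87, adjusted p = 1.00), where the library titled WT 7 d replicate 2, with Lcn2 at 8.97 CPM, counts as a mouse at 1 d. Without the shallow libraries, when cKO 1 d replicate 2 alone stands for 1 d and is assumed to vary like the other groups, it was 5.80 (adjusted p = 0.00883). In WT 1 d replicate 1, 50 of the 169 UMIs of Lcn2 lay in 3 cells whose barcode occurs in another library. Without all such cells the log2 fold change was 6.05 (adjusted p = 0.000777).

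A minority of endothelial cells carried the UMIs of Lcn2 at 1 d. It had a UMI in 39 of 260 cells (15.0%) in the WT mouse, in 22 of 283 (7.77%) in cKO replicate 1 and in 34 of 205 (16.6%) in cKO replicate 2. The single richest cell held 37 of 169, 19 of 69 and 107 of 294 UMIs. Over the 3 mice the share was 12.7% at a median of 549.5 UMIs per cell, against 4.98% at a median of 1418.5 in neurons, which should lack it and so show what free RNA adds. The summed level of Lcn2 went from 9.70 CPM uninjured to 630 CPM at 1 d in endothelial cells. It went from 1.03 to 178 CPM in astrocytes, 0.00 to 69.5 CPM in pericytes, 0.00 to 51.5 CPM in microglia and 1.05 to 18.8 CPM in neurons. In the myeloid cells of Cluster 16 it went from 5869 to 2200 CPM. Higher values at 1 d were thus not confined to the endothelial cells, and the classes were not tested against each other. Of neutrophil genes, S100a8 and S100a9 had 0 UMIs in the endothelial cells of 2 of the 3 mice, with Lcn2 or without. In cKO replicate 2 S100a8 stood at 37.9 CPM in the cells with Lcn2 against 26.8 CPM in those without, from 5 and 11 UMIs. S100a9 stood at 53.1 against 36.5 CPM, from 7 and 15 UMIs, so both were higher in the cells with Lcn2 there.

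Several genes of small veins were higher in the cells with Lcn2, as a description of cells picked by 1 gene, with no test. Ackr1, a receptor of venules that presents chemokines, had 35 UMIs in the cells with Lcn2 and 0 in those without it in the WT mouse, 3 and 0 in cKO replicate 1, and 52 and 6 in cKO replicate 2. In the WT mouse 24 of the 35 UMIs of Ackr1 lay in 2 cells with a shared barcode. Selp, the P-selectin that catches leukocytes, had 2 and 0, 0 and 0, and 9 and 1 UMIs. Lrg1, a secreted protein of activated vessels, stood at 474 against 56.0 CPM, 485 against 86.9 CPM and 1153 against 197 CPM. Vcam1, an adhesion molecule for leukocytes, and Nr2f2, a transcription factor of veins, were likewise higher in the cells with Lcn2 in all 3 mice. Slc38a5, a transporter on the venous list, stood at 343 against 243 CPM, 216 against 217 CPM and 668 against 231 CPM, so it was not higher in cKO replicate 1. Adamts9 was at 659 against 187 CPM, 485 against 86.9 CPM and 531 against 219 CPM. Spock2, a proteoglycan of capillaries, was lower in the cells with Lcn2, at 290 against 1261 CPM, 700 against 2006 CPM and 781 against 1754 CPM. Flt1 was lower as well, at 2899 against 4969 CPM, 2909 against 5997 CPM and 2640 against 4589 CPM. So was Ly6c1, at 2319 against 3876 CPM, 2371 against 3708 CPM and 3573 against 3832 CPM. Cldn5 lay at 2640 to 2958 CPM in the cells with Lcn2 and at 2151 to 3129 CPM in those without, so the groups overlapped. The cells with Lcn2 were deeper, with medians of 605, 748.5 and 2536.5 UMIs against 403, 428 and 2050, and the part of depth in these contrasts was not tested.

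**Figure D1:**
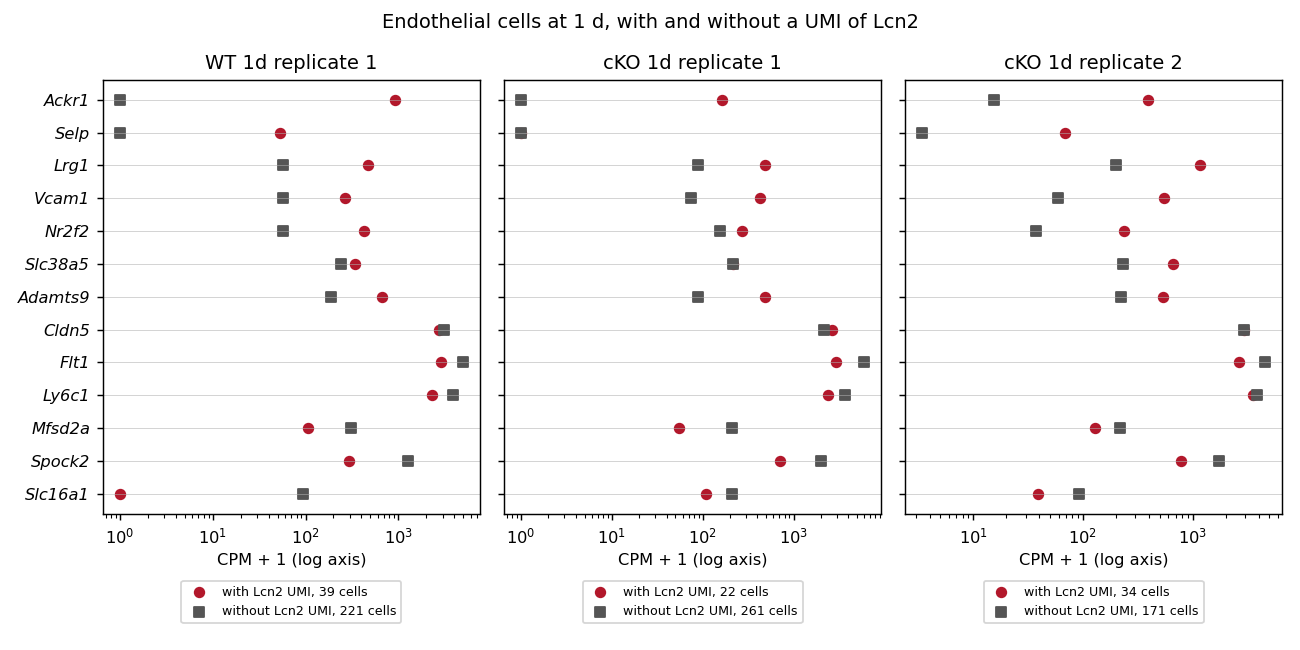
Level (CPM + 1, log axis) of 13 genes in endothelial cells at 1 d with at least 1 UMI of Lcn2 (circles) and without one (squares), in the 3 mice of that time. Lrg1, Vcam1, Nr2f2 and Adamts9 lie higher, and Spock2, Mfsd2a and Flt1 lower, in the cells with Lcn2 in each mouse.

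Adamts9 encodes a secreted metalloprotease that cleaves proteoglycans of the matrix. Its level was 77.6 and 38.6 CPM in the uninjured WT mice and 45.1 and 40.0 CPM in the uninjured cKO mice. At 1 d it was 295 CPM in the WT mouse and 130 and 349 CPM in the cKO mice, all above the uninjured mice. At 7 d it lay at 47.0 to 78.5 CPM and at 14 d at 63.3 to 108 CPM, both overlapping the uninjured mice. The log2 fold change was 2.42 at 1 d (adjusted p = 0.0196), 0.48 at 7 d (adjusted p = 0.658) and 0.58 at 14 d (adjusted p = 0.690). Over 28 alternatives it lay between 1.83 and 3.03 at 1 d, and 11 of them did not pass. These were the fits without WT uninjured replicate 2 (adjusted p = 0.0676), cKO uninjured replicate 1 (0.102), cKO uninjured replicate 2 (0.414), WT 1 d replicate 1 (0.325), cKO 1 d replicate 2 (0.216), WT 7 d replicate 1 (0.0523) or WT 7 d replicate 2 (0.0540), the fit without the shallow libraries (0.0531), the conditions of the cell names (1.00), the cells moved in from Cluster 2 added (0.129) and the Xist level as a term (0.0901). Summed over mice, Adamts9 rose from 55.6 CPM uninjured to 268 CPM at 1 d in the endothelial cells and from 41.6 to 91.2 CPM in pericytes, there from 19 and 21 UMIs. It was 41.8 and 45.7 CPM in neurons and 52.6 and 46.6 CPM in astrocytes, and the classes were not tested against each other.

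The promoters of both called genes are shown because these genes passed together at 1 d. They run from 250 bases before to 50 after the start of each gene, from RefSeq on GRCm38.p6, on the minus strand at chr2:32387690-32387989 for Lcn2 and at chr6:92943485-92943784 for Adamts9. Both strands were searched for TTCNNNGAA, which STAT factors bind, TTGCNNAA, which CEBP factors bind, and the NF-kB consensus, and capitals mark a match. Of 27025 promoters, 8.47% hold the first, 10.8% the second and 5.55% the third. The Lcn2 promoter has TTGCNNAA once, at bases 35 to 42, and the Adamts9 promoter has the NF-kB consensus at bases 236 to 245 on both strands. The letters of the CEBP motif were chosen after a match to a wider form had been seen, and a match describes the letters alone.

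Lcn2: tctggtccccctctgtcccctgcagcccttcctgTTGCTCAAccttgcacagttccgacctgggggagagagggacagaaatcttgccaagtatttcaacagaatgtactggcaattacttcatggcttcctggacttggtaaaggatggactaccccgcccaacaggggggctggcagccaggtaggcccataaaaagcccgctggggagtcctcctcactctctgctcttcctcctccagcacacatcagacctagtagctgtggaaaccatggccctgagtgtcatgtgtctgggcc

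Adamts9: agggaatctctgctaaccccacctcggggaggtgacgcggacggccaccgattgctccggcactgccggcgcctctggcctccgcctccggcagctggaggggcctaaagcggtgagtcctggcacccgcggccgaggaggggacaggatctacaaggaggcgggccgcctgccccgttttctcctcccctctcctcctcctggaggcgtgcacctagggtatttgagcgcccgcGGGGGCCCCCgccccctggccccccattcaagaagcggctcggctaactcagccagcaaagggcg

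The genes of leukocyte adhesion and inflammation had a median log2 fold change of 1.31 at 1 d, beside −0.07 over all genes tested. Of the 21 tested, 1 was called, 19 had a positive sign, and 8 were higher in every mouse at 1 d than in every uninjured mouse, against 2.85% of all genes. Those 8 were Icam1, Vcam1, Ackr1, Lrg1, Lcn2, Cxcl1, Ch25h and Il1r1, and 0 lay lower without overlap, against 3.32% of all genes. Ackr1 was 0.00 to 7.51 CPM in the uninjured mice and 229, 18.5 and 127 CPM at 1 d. It had 4 UMIs in all uninjured mice together, and 5.87 (adjusted p = 0.0652) as its log2 fold change missed the threshold. With the replicate number as a block, in which mice are paired by batch, it was among the 5 genes that passed. Over 28 alternatives its log2 fold change ran from 3.77 to 7.05, and it passed in 7. Lrg1 was 7.24 to 22.5 CPM in the uninjured mice and 157, 130 and 509 CPM at 1 d (log2 fold change 4.39, adjusted p = 0.356). Icam1, which binds leukocyte integrins, was 12.9 to 60.0 CPM uninjured and 282, 124 and 148 CPM at 1 d (log2 fold change 2.13, adjusted p = 0.356). At 7 d the list had a median of 0.55 with 0 called of 21, and at 14 d it had 0.64 with 0 called of 21. The summed level of its 22 genes, led by Nfkbia, was 1503 to 2343 CPM in the uninjured mice. It was 4034 and 3610 CPM in the shallow libraries at 1 d and 4421 CPM in the other mouse of that time. At 7 d it was 2890 and 2734 CPM in the shallow libraries against 1438 and 1597 CPM in the other 2, so at 7 d only the shallow libraries lay above the uninjured range. The sums were not tested, and neither was the part of depth. At 14 d 2 of the 21, Icam1 and Lcn2, were higher without overlap, against 3.13% of all genes.

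**Figure D2:**
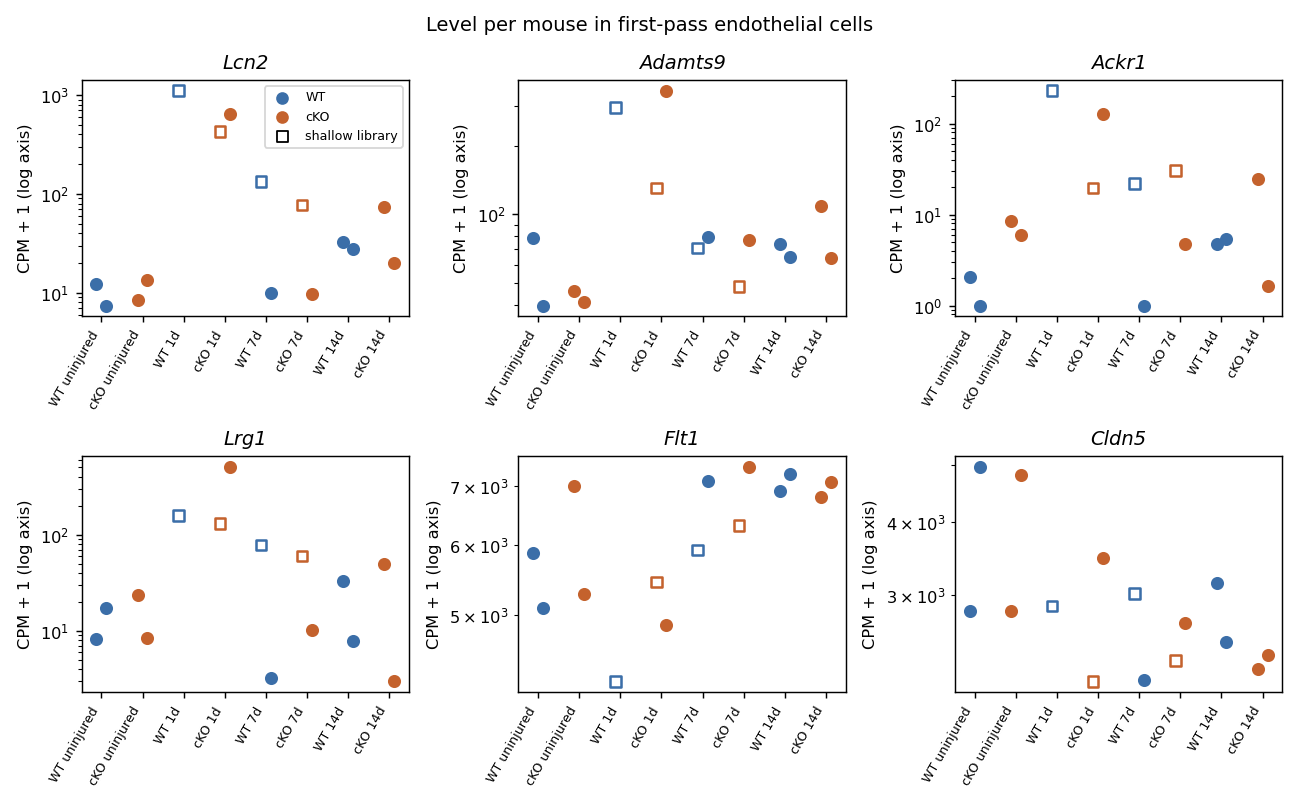
Level (CPM + 1, log axis) of 6 genes in each of the 15 mice, by genotype and time, with open squares for the 4 shallow libraries. Lcn2 lies at 6.44 to 12.5 CPM in the uninjured mice and at 427 to 1107 CPM at 1 d.

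Several genes outside the lists came near the threshold at 1 d and were chosen after their values were seen. Igfbp4, a binding protein of insulin-like growth factors, had 0.00 to 10.0 CPM in the uninjured mice and 177, 55.6 and 43.7 CPM at 1 d (log2 fold change 4.07, adjusted p = 0.0641). Emp1, a membrane protein, had 7.51 to 20.7 CPM uninjured and 118, 43.3 and 76.4 CPM at 1 d (log2 fold change 2.64, adjusted p = 0.0652). Scgb3a1, a small secreted protein, had 7.51 to 37.5 CPM uninjured and 151, 80.4 and 570 CPM at 1 d (log2 fold change 3.11, adjusted p = 0.0652). For each of these 3 genes all mice at 1 d lay above all uninjured mice. Over 28 alternatives the log2 fold change of Igfbp4 ran from 2.53 to 6.75 and passed in 10. That of Emp1 ran from 1.90 to 3.03 and passed in 4, and that of Scgb3a1 ran from 2.10 to 4.296 and passed in 8.

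Among junction genes 12 of 13 were tested, and Cgn had 0 UMIs in every mouse. None of the 12 was called at 1 d, 7 d or 14 d, and their medians were −0.11, −0.21 and −0.10. Cldn5 was 2825 and 4966 CPM in the uninjured WT mice and 2824 and 4802 CPM in the uninjured cKO mice. At 1 d it was 2875 CPM in the WT mouse and 2139 and 3475 CPM in the cKO mice, which overlapped the uninjured range. Its log2 fold change was −0.44 at 1 d (adjusted p = 0.904), −0.60 at 7 d (adjusted p = 0.544) and −0.59 at 14 d (adjusted p = 0.665). Tjp1, a scaffold of the junctions, lay at 998 to 1606 CPM in uninjured and at 923 to 1817 CPM in injured mice. Among 6 genes of vesicle transport 5 were tested and 0 called at any time. Plvap, a component of the diaphragms of leaky vessels, lay at 0.00 to 6.55 CPM in all mice, and Mfsd2a, a lipid transporter that limits vesicles, at 170 to 386 CPM.

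Of 17 barrier transporters, all tested, 0 were called at any time. At 1 d 15 had a negative sign, with a median of −0.50, and 4 were lower without overlap, against 3.32% of all genes, Slc7a5, Slco1c1, Slc22a8 and Slc40a1. Slc22a8, an organic anion transporter, was 468 and 528 CPM in the uninjured WT mice and 556 and 563 CPM in the uninjured cKO mice. It was 236 CPM in the WT mouse and 328 and 218 CPM in the cKO mice at 1 d, below all uninjured mice (log2 fold change −1.07, adjusted p = 0.375). At 7 d and 14 d the transporters had medians of 0.03 and 0.12. Slc2a1, the glucose transporter, lay at 1480 to 2892 CPM uninjured and at 1742 to 2726 CPM at 1 d. Slco1a4, an anion transporter and the most abundant of the list, was tested at −0.49 for 1 d (adjusted p = 0.872).

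Of the Vegf receptors Flt1 was the most abundant, and none was called. Flt1, which acts partly as a decoy, was 5887 and 5088 CPM in the uninjured WT mice and 7015 and 5285 CPM in the uninjured cKO mice, and it was 4204, 5453 and 4873 CPM at 1 d. The log2 fold change of Flt1 was −0.32 at 1 d (adjusted p = 0.911). Kdr, the main signalling receptor, lay at 398 to 718 CPM uninjured and 288 to 470 CPM at 1 d (log2 fold change −0.65, adjusted p = 0.854). Flt4 lay at 77.3 to 142 CPM over all mice. The co-receptor Nrp1 lay at 345 to 488 CPM uninjured and at 291 to 321 CPM at 1 d (log2 fold change −0.41, adjusted p = 0.885). Among 9 tested Vegf pathway genes only Nrp1 was lower without overlap at 1 d, against 3.32% of all genes. Only Pgf was higher without overlap, against 2.85%. Nrp2 lay at 87.5 to 143 CPM uninjured and at 144 to 221 CPM at 14 d (log2 fold change 0.69, adjusted p = 0.635). It was higher without overlap at 14 d, 1 of the 9, against 3.13% of all genes. The ligand Pgf had 2 UMIs in the uninjured mice together and was 19.6, 49.5 and 80.8 CPM at 1 d (log2 fold change 5.91, adjusted p = 0.509). Of the 20 genes of tip cells and angiogenesis 14 were tested, and 0 were called at any time. At 1 d Apln, a peptide of sprouting cells, Pgf, Plaur and Igfbp3 were higher without overlap, 4 of 14, against 2.85% of all genes, and Aplnr and Dll4 were lower, 2 of 14, against 3.32%. Apln was 0.00 to 9.66 CPM uninjured and 39.3, 24.7 and 80.8 CPM at 1 d (log2 fold change 3.26, adjusted p = 0.375). Igfbp3, which binds insulin-like growth factors, was 56.9, 48.3, 7.51 and 55.0 CPM uninjured and 3.73, 1.86, 10.9 and 2.64 CPM at 14 d. Of the uninjured mice 1, cKO replicate 1, lay inside the range at 14 d. The log2 fold change was −3.52 (adjusted p = 0.152 with edgeR), and DESeq2 called it.

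Of 18 Wnt receptors and co-receptors 10 were tested, and 0 were called at 1 d, 7 d or 14 d, with medians of −0.23, −0.11 and 0.02. Fzd4, the receptor for norrin, lay at 87.5 to 329 CPM, Fzd6 at 97.6 to 245 CPM, Lrp5 at 52.2 to 126 CPM and Lrp6 at 135 to 206 CPM over all mice. Tspan12, Adgra2 and Reck, which help Wnt receptors in brain endothelium, lay at 44.8 to 154, 98.9 to 218 and 83.9 to 211 CPM. At 1 d 8 of the 10 had a negative sign, and Adgra2 and Reck were lower without overlap, 2 of 10, against 3.32% of all genes. At 7 d Tspan12, 1 of the 10, was higher without overlap, against 2.51% of all genes. Of the 14 targets of Wnt in endothelium 13 were tested and 0 called. At 1 d 12 of the 13 had a negative sign, beside a median of −0.07 over all genes tested. The share of negative signs over all genes was not counted. At 14 d Axin2, Lef1 and Tnfrsf19 were higher without overlap, 3 of 13, against 3.13% of all genes, and Sox17 was lower, against 2.25%. Lef1, a transcription factor of the pathway, was 926, 892, 1307 and 933 CPM uninjured and 1374, 1728, 1357 and 1310 CPM at 14 d (log2 fold change 0.51, adjusted p = 0.665). Of 5 Fgf receptors 3 were tested and 0 called, and Fgfr2 was the most abundant at 72.7 to 161 CPM, with Fgfr1 at 5.18 to 22.5 CPM and Fgfr3 at 0.00 to 32.7 CPM.

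**Figure D3:**
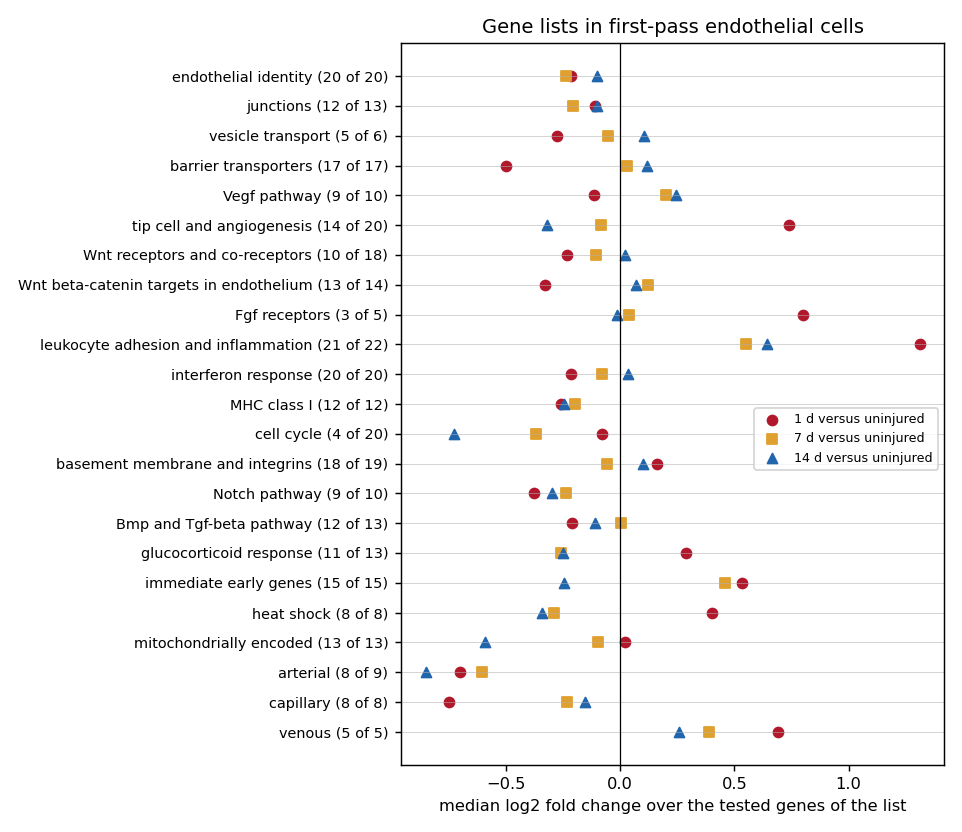
Median log2 fold change of the tested genes of each list at 1 d, 7 d and 14 d against uninjured mice, with tested and listed genes in brackets. Leukocyte adhesion and inflammation lies at 1.31 at 1 d, and the median over all genes at 1 d was −0.07.

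In the other lists 0 genes were called at 1 d, 7 d or 14 d by edgeR. Endothelial identity genes had medians of −0.21, −0.24 and −0.10, and 16, 15 and 11 of the 20 had a negative sign. At 1 d Ly6c1, Ly6a and Ecscr, 3 of 20, were higher without overlap, against 2.85% of all genes. Ly6c1 and Sox17, 2 of 20, were lower at 7 d, against 2.93%, and Ly6c1, Esam, Robo4 and Sox17, 4 of 20, were lower at 14 d, against 2.25%. Interferon response had medians of −0.21, −0.08 and 0.03, with Ifitm3 as an abundant member at 489 to 2170 CPM. Ifitm1, a membrane protein that restricts viruses, was 7.24 to 17.5 CPM uninjured and 105, 37.1 and 111 CPM at 1 d (log2 fold change 2.93, adjusted p = 0.279). At 1 d Ifitm1 and Ifitm2 were higher without overlap, 2 of 20, against 2.85% of all genes, and Irf7 and Iigp1 were lower, 2 of 20, against 3.32%. Class I MHC genes had medians of −0.26, −0.20 and −0.24. Of 20 cell cycle genes 4 were tested, and Mki67, a gene of dividing cells, lay at 0.00 to 3.22 CPM in all mice. Basement membrane genes had medians of 0.16, −0.06 and 0.10, and Sparc, a matrix protein, lay at 910 to 2851 CPM. Notch genes had medians of −0.38, −0.24 and −0.30, Bmp and Tgf-beta genes −0.21, 0.00 and −0.11, and arterial genes −0.70, −0.61 and −0.85. Glucocorticoid response had medians of 0.29, −0.26 and −0.25, heat shock genes 0.40, −0.29 and −0.34, mitochondrially encoded genes 0.02, −0.10 and −0.59, and Vegf pathway genes −0.12, 0.20 and 0.24. Immediate early genes had medians of 0.53, 0.46 and −0.25, and they move with the shallow libraries, as Fos shows. Their part in the results at 1 d and 7 d was not tested.

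Markers of other cell types were present at levels that differed between mice. The summed level of 6 oligodendrocyte markers, led by Mbp, ran from 721 CPM in WT 7 d replicate 1 to 4035 CPM in WT uninjured replicate 2. That of 7 neuron markers, led by Snap25, was 26.2, 61.8 and 369 CPM at 1 d and 132 to 323 CPM uninjured. That of 10 pericyte and smooth muscle markers, led by Rgs5, was 386, 624 and 2070 CPM at 1 d and 647 to 1195 CPM uninjured. The 7 astrocyte markers, led by Slc1a2, summed to 1185 CPM in cKO 1 d replicate 2 and to 72.0 to 708 CPM in the others. Immune and myeloid markers, 8 genes led by S100a9, summed to 19.6, 6.18 and 100 CPM at 1 d and to 2.07 to 86.9 CPM uninjured, beside the rise of Lcn2. Of these lists 0 genes were called at 1 d, and the part of other cells in the results was not tested.

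Capillary genes had a median of −0.75 at 1 d, with 8 of 8 negative and 0 called, and venous genes 0.69, with 5 of 5 positive and 0 called. Spock2, Slc7a5 and Slc22a8, 3 of the 8 capillary genes, were lower without overlap, against 3.32% of all genes. Of the 5 venous genes 2, Ackr1 and Ephb4, were higher without overlap, against 2.85%. The lists share genes. Slc7a5, Slc22a8, Tfrc and Slc16a1 are also barrier transporters, Mfsd2a is also a vesicle gene, and Ackr1 is also on the inflammation list. Slc7a5, Slc22a8 and Ackr1 were therefore counted above as well, and these counts are not separate findings. The summed level of the 8 capillary genes, led by Spock2, was 5438 to 7131 CPM uninjured and 2678, 4562 and 4233 CPM at 1 d. At 7 d it was 4163 and 5274 CPM in the shallow libraries and 6961 and 7323 CPM in the others. That of the 5 venous genes was 477 to 645 CPM uninjured and 1074, 915 and 1022 CPM at 1 d. At 7 d it was 1015 and 923 CPM in the shallow libraries and 587 and 526 CPM in the others. Both sums thus moved with the shallow libraries at 7 d, while at 1 d the deep mouse, cKO replicate 2, lay outside the uninjured range as well, and the part of depth was not tested. Spock2 was 1958, 2901, 2666 and 3339 CPM uninjured and 956, 1793 and 1797 CPM at 1 d, below all uninjured mice (log2 fold change −1.04, adjusted p = 0.684). To compare zones of the vessel tree, cells were thinned to 500 UMIs by 1 random draw and marked as arterial or venous when they had a UMI of 1 list and none of the other. The 630 cells with fewer UMIs were left out, all of them in the shallow libraries, namely 157 of 260 in WT 1 d, 167 of 283 in cKO 1 d, 159 of 253 in WT 7 d and 147 of 263 in cKO 7 d. The arterial-marked share was 11.8% in injured and 15.1% in uninjured mice, a difference of −3.29 points (exact two-sided permutation test, p adjusted over both shares = 0.196). It depended on the draw and on 1 mouse, with −0.83 points as the average over all ways of thinning (exact permutation test, adjusted p = 0.626) and −1.19 points without cKO uninjured replicate 1 (exact permutation test, adjusted p = 0.626). The venous-marked share was 25.02% in injured and 17.8% in uninjured mice, a difference of 7.18 points (exact two-sided permutation test, adjusted p = 0.180, unadjusted p = 0.0901). The average, used after the result of the draw was known, gave 7.09 points (exact unadjusted p = 0.0425, adjusted p = 0.0850). The 4 shallow libraries had the highest venous-marked shares, 29.3% to 35.3%, against 15.3% to 26.3% in the other mice, and without them the difference was 2.79 points (exact permutation test, adjusted p = 0.307). Without thinning it was −0.71 points (exact permutation test, adjusted p = 0.840), the opposite direction. In thinned neurons 3.25% were venous-marked and 9.004% arterial-marked. The most abundant gene of the arterial list, Stmn2, had 130 CPM in neurons against 74.2 CPM in the endothelial cells, so the arterial share of neurons does not measure free RNA.

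Genotype was compared to ask whether a knockout made in astrocytes shows in the endothelium. In uninjured mice, 2 against 2, edgeR called 0 genes (0%), 327 had an unadjusted p under 0.05, and by DESeq2 0 passed. After injury, averaged over 1 d, 7 d and 14 d, edgeR called 0 genes (0%), 367 had an unadjusted p under 0.05, and by DESeq2 0 passed. The effect of injury in cKO against that in WT gave 0 genes (0%) by edgeR, 379 at an unadjusted p under 0.05, and 0 by DESeq2. Lcn2 had a log2 fold change of −0.43 (adjusted p = 1.00) and Adamts9 −0.03 (adjusted p = 1.00) between genotypes after injury. Flt1 stood at 0.11, Kdr at 0.05 and Fzd4 at 0.41 there, each with an adjusted p of 1.00.

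After injury 18 genes were higher (0.172%) and 15 lower (0.143%) in every cKO than in every WT mouse. Of the lists only Per1, a clock gene that glucocorticoids raise, and Rgcc, a gene of capillaries, were among the higher, and 0 list genes were among the lower. The smallest adjusted p belonged to Gm6639, a predicted gene, and the next to Mmrn2. Mmrn2, a matrix protein of endothelium, was 190, 154, 165, 201 and 168 CPM in the injured WT mice and 80.4, 26.2, 123, 94.9, 103 and 89.1 CPM in the injured cKO mice. All cKO mice lay below all WT mice, and the log2 fold change was −1.20 (adjusted p = 0.553). It passed in 2 of 28 alternatives, with no filter on low counts (−1.18, adjusted p = 0.0199) and without cKO 1 d replicate 1 (−1.47, adjusted p = 0.0278). In uninjured mice Mmrn2 ran the other way without overlap, at 156 and 151 CPM in WT and 210 and 240 CPM in cKO (log2 fold change 0.56, adjusted p = 1.00). With 2 mice against 2 there, 12.4% of all genes were higher without overlap in cKO, so that non-overlap says little. Genes of the glucocorticoid response had a median of 1.23 in the effect of injury in cKO against WT, beside 0.10 over all genes, with 0 called of 11. The same list had a median of −0.92 in cKO against WT uninjured, with 11 of 11 negative, and 0.42 after injury, so the uninjured median was the larger of the 2 in size. Fkbp5, a chaperone that glucocorticoids induce, was 98.3 and 3.22 CPM in the uninjured WT mice and 0.00 and 5.00 CPM in the uninjured cKO mice. After injury it was 173 CPM in cKO 1 d replicate 1, 67.7 CPM in cKO 1 d replicate 2 and 3.73 to 23.7 CPM in the other mice. WT uninjured replicate 1 and both cKO mice at 1 d thus stood high (log2 fold change 5.84, adjusted p = 1.00). Over 28 alternatives it ran from 1.69 without WT uninjured replicate 1 to 10.26 without cKO uninjured replicate 2, fits in which 1 uninjured mouse stands for its genotype. It passed with no filter on low counts and without WT uninjured replicate 2 (6.54, adjusted p = 0.0112), where WT uninjured is the 1 high mouse. Zbtb16, a transcription factor of the same response, was highest in WT uninjured replicate 1 and cKO 1 d replicate 1, at 756 and 872 CPM.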

How the data were processed

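The authors deposited raw UMI counts, with no normalization, made with Cell Ranger on mm10, and gave the cluster of each cell and the percent of mitochondrial UMIs. Counts of the endothelial cells were summed per mouse with at least 10 cells and tested with edgeR 4.0.16 (TMM, filterByExpr, quasi-likelihood fit of 8 group means) in R, with Benjamini-Hochberg adjustment over 10458 genes. DESeq2 1.42.0 was an alternative. In the authors' cell table the batch is the replicate number in 16 of 16 mice, so it pairs mice of different conditions. The deviations of mice from their group means had a median correlation of 0.0481 over 21 pairs of conditions. CPM are counts per 1000000 UMIs. Those of genes and lists per mouse carry TMM factors, and those of cell classes, of cells with and without Lcn2 and of moved cells do not. Shares were compared over mice by exact two-sided permutation.

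Genes were named by rule: called genes without overlap, called list members, the most abundant members of other lists, the 5 markers, the Vegf, Wnt and Fgf receptors, and Ryk. Others were chosen after their values were seen. Signs were counted within lists and not over all genes, whose median log2 fold changes were −0.07 at 1 d, −0.001 at 7 d and 0.03 at 14 d. The members and lists were chosen with earlier results of these data known. Some genes are on more than 1 list and are counted in each. Zone shares use 1 random draw per cell, and the average over all draws was added after the result of that draw was seen. Positions are from GENCODE vM21 by symbol, and promoters from RefSeq on GRCm38.p6. Free RNA was not removed. No doublet caller was run, and 141 endothelial cells with at least as many UMIs of other cell types' markers as of endothelial genes stayed in.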

Additional observations from a re-analysis of the deposited data

Results flagged for a closer look

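The cells moved in from Cluster 2, left out of the main comparisons, held Lcn2 at 404 CPM at 1 d against 3.69 CPM in the uninjured mice, where 1 of 328 cells had a UMI, and 22 of 365 did at 1 d. They held Adamts9 at 63.1 CPM at 1 d against 14.7 CPM uninjured, from 10 and 4 UMIs. Both pooled values were above those of the uninjured mice in cells outside the main comparisons. By mouse Lcn2 was 488, 845 and 133 CPM at 1 d and 0.00 to 9.14 CPM uninjured, without overlap. Adamts9 was 195, 44.4 and 24.2 CPM at 1 d and 59.3 CPM in WT uninjured replicate 1, so the groups overlapped. The moved cells differed between mice. In the second uninjured replicates, which hold most of the uninjured moved cells, Cldn5 was 64.2 and 128 CPM. It was 2788 CPM in WT uninjured replicate 1 and 3199 CPM in cKO uninjured replicate 1, the latter from 4 cells. At 1 d it was 3484 and 2622 CPM in the first replicates of WT and cKO and 206 CPM in cKO replicate 2. The cells had a median of 364 UMIs at 1 d and 726.5 uninjured, and the difference between times was not tested.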

How the results depend on the processing

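Of 280 alternatives for 10 named gene results, 222 kept direction and call, 58 changed the call and 0 reversed. The cause of each change below was not tested unless stated. With no filter on low counts, which tests more genes, calls were 60 at 1 d, 68 at 7 d, 69 at 14 d, 11 for genotype in uninjured mice, 26 for genotype after injury and 12 for the effect of injury between genotypes. DESeq2 called 4 at 1 d and 1 at 14 d. With the replicate block 5 were called at 1 d. With the animal number series as a term calls were 7 at 1 d, 4 at 7 d, 16 at 14 d and 1 for the effect of injury between genotypes. With the conditions of the cell names 0 were called at 1 d by edgeR and 4 for genotype in uninjured mice, where WT is then 1 mouse, so those 4 support no result. With the moved cells added 1 was called at 1 d. Without the 141 cells of mixed identity calls were 2 at 1 d and 0 elsewhere. Without the shallow libraries, which leaves fewer mice, calls were 4 at 1 d, 2 at 7 d and 2 for genotype after injury.

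Some alternatives were chosen after seeing the data. Without cells whose barcode is in another library 4 were called at 1 d. With the level of Gm42418 as a term calls were 17 at 1 d, 5 at 14 d and 1 for the effect of injury between genotypes. With the level of Xist as a term 1 was called at 1 d. The average over all ways of thinning, in place of 1 draw, left the adjusted p of both zone shares above the threshold, at −0.83 points for arterial-marked and 7.09 for venous-marked cells.

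Leaving out each mouse in turn gave 0 to 6 calls at 1 d, 0 to 1 at 7 d, 0 to 7 at 14 d, 0 to 2 for genotype in uninjured mice, 0 to 2 for genotype after injury and 0 to 2 for the effect of injury between genotypes. Leaving out an uninjured mouse leaves its genotype 1 uninjured mouse. The endothelial share of cKO against WT passed with the conditions of the cell names (−5.34 points, exact permutation p = 0.0389). Without thinning the arterial-marked share passed (−3.97 points, exact permutation test, adjusted p = 0.0476) and the venous-marked share turned to −0.713 points (adjusted p = 0.840).

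Depth limits what can be seen. WT at 1 d is 1 mouse, and in the shallow libraries a cell had a median of 423 to 467 UMIs, so genes of low level give few UMIs there. Calls at this size say little about genes that did not pass. Cells of 1 mouse share a library and are not replicates.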
